A study of Rattus norvegicus with 23 samples.

Results

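Kidney libraries from rats with an arteriovenous fistula and a partial nephrectomy (AVF+NX, 4 libraries) were compared with those from sham-operated rats (Sham, 4 libraries), which are 8 of the 23 RNA-sequencing libraries of a study of hearts and kidneys. The libraries were chosen by their labelled organ and group, and every change is given as AVF+NX over Sham. All animals were Sprague-Dawley rats aged 13 weeks, and tissue was collected 4 weeks after surgery. The AVF+NX rats carried both operations: a 5/6 partial nephrectomy, which leaves a small remnant of kidney tissue, and a fistula that joined the jugular vein to the side of the carotid artery. Sham rats had sham surgery, whose steps the labels do not give. Another 4 kidney libraries came from rats with the nephrectomy and no fistula (NX), and they enter below where a difference from AVF+NX is tested. Between AVF+NX and Sham the fistula and the nephrectomy cannot be told apart. The labels number the libraries as biological replicates without stating that each is 1 animal, so the p-values measure the spread between these samples. The labels do not say which region of the kidney was taken.

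The remnant kidney is a standard rat model of chronic kidney disease. The nephrons that remain take over the filtration of those that were removed, and over weeks tubules can lose their transporters and divide, fibroblasts can lay down collagen between the tubules, and blood cells can settle in the interstitium. An arteriovenous fistula, the connection made for dialysis, carries arterial blood straight into a vein and raises the volume load on the circulation.

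Total counts per library ran from 9503652 to 10416535 in AVF+NX and from 9069354 to 12637718 in Sham kidneys. Of 15 markers of kidney cell types, 14 had a symbol and were tested, and each stood at 31.2 CPM (a gene's counts scaled to the same total in each library) or more in all 8 libraries, so the tissue label held. Markers of liver, heart and skeletal muscle (Alb, Myh6, Nppa and Ckm) stayed at or below 0.539 CPM in these libraries. The share of counts from mitochondrial genes was 5.71% to 9.03% in AVF+NX and 7.63% to 9.51% in Sham. On the first principal component of all 12 kidney libraries, which held 56.9% of the variance, AVF+NX libraries 1 to 4 lay at 66.4, 48.2, 28.1 and 56.7 and the Sham libraries between −54.1 and −36.5. AVF+NX library 3 was therefore the AVF+NX library nearest to Sham, and several genes below show it apart from the other three.

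Of 14322 genes tested, 3594 (25.1%) were called at an adjusted p below 0.05 (edgeR's quasi-likelihood test with Benjamini-Hochberg adjustment): 2279 (15.9%) were higher and 1315 (9.18%) lower in AVF+NX. The rises were larger than the falls. The median log2 fold change was 1.20 over the genes called higher, −0.49 over those called lower and −0.01 over all genes tested. A change of at least 2-fold was called for 1313 genes (9.17%) that were higher and for 75 (0.524%) that were lower. The CPM of the groups did not overlap for 3953 genes (27.6%). The count of genes called lower depended on single libraries: it was 661, 863 or 855 without AVF+NX library 1, 2 or 4, and 777, 804 or 800 without Sham library 2, 3 or 4, whereas the count called higher stayed between 1652 and 2707. Over all genes, 2313 calls were made without AVF+NX library 1. In the authors' deposited table of this comparison 4403 genes passed an adjusted p of 0.05, among them 97.1% of the genes called here, with 0 of opposite sign.

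**Figure D1:**
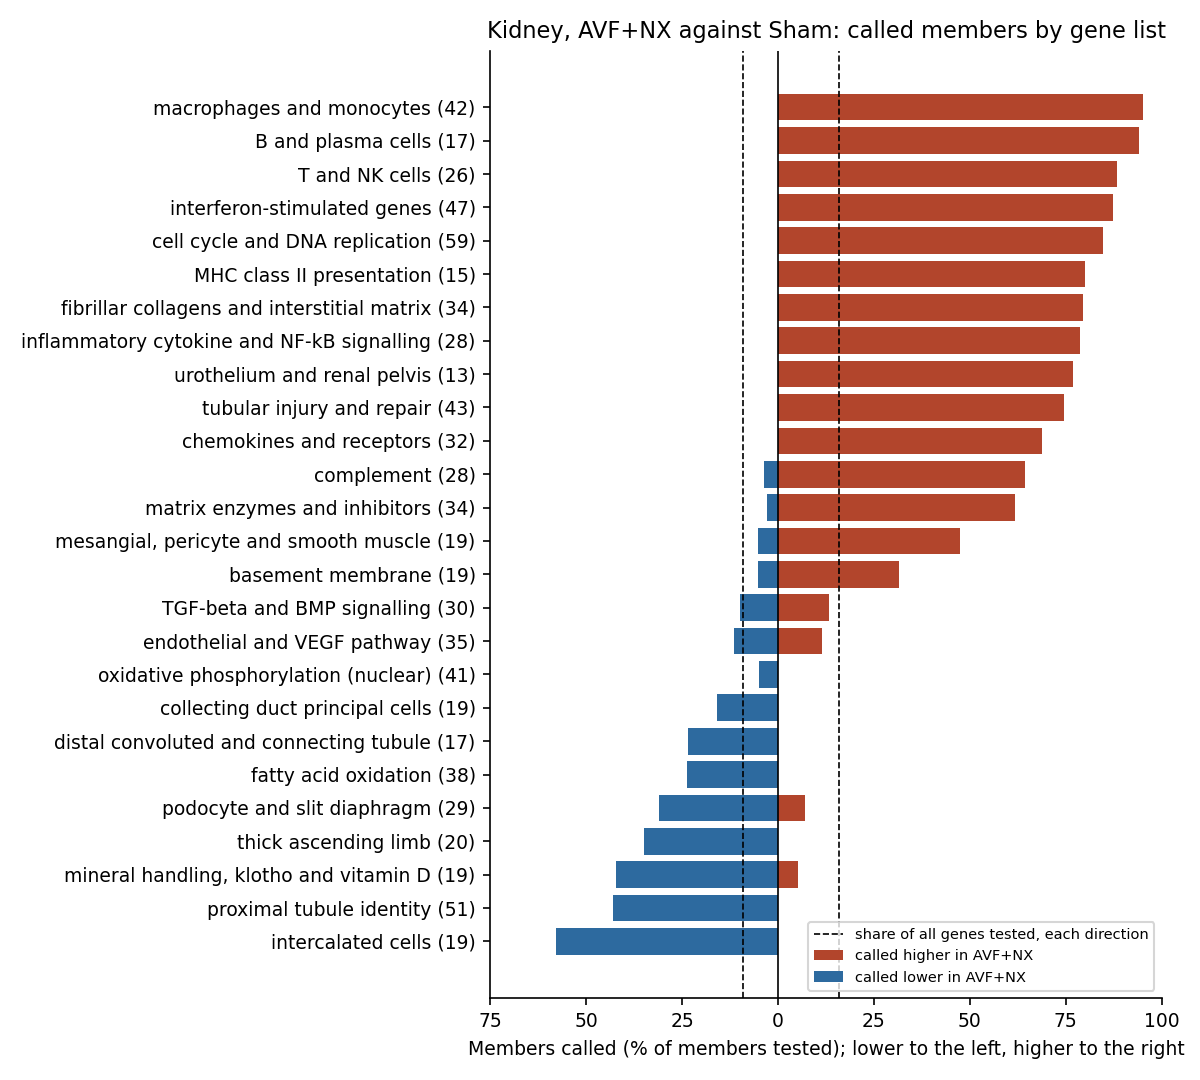
Share of each gene list's members called higher (bars to the right) or lower (bars to the left) in AVF+NX kidneys, as a percentage of the members tested, whose number stands in brackets. Dashed lines mark the shares of all genes tested, 15.9% higher and 9.18% lower; immune, interferon, matrix and cell cycle lists lie to the right and nephron lists to the left.

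Genes of B and plasma cells had the largest median rise of all lists. Of 17 tested, 16 were called higher and 0 lower, against 15.9% and 9.18% of all genes, with a median log2 fold change of 4.23. Igh-6, the heavy chain of immunoglobulin M, stood at 468, 1119, 735 and 2281 CPM in AVF+NX libraries 1 to 4 and at 2.11, 1.07, 0.262 and 0.989 CPM in Sham libraries 1 to 4. Every AVF+NX library lay far above every Sham library, and library 4 held the most. The log2 fold change was 10.07 ± 0.89 (SE; edgeR adjusted p = 5.07e-05), the largest rise among the genes eligible for naming. The files place Igh-6 at chr6:138092131-138093643 on the minus strand (genome build not given in the sources used here), where it overlaps 1 other listed gene on the same strand, so reads shared with that gene are uncertain. Jchain, the chain that joins immunoglobulin M and A into polymers, measured 271, 206, 108 and 264 CPM in AVF+NX against 1.56, 0.658, 1.14 and 2.25 CPM in Sham, a log2 fold change of 7.26 ± 0.68 (edgeR adjusted p = 7.05e-05). Mzb1, an endoplasmic reticulum protein of antibody-secreting cells, rose with it (6.82 ± 0.68 on the log2 scale). In both genes all 4 AVF+NX libraries lay above all 4 Sham libraries, with library 3 the lowest of the AVF+NX group.

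Ms4a1, which encodes the B cell surface protein CD20, had 0 reads in all 4 Sham libraries and 4.85, 3.72, 10.1 and 5.604 CPM in AVF+NX, at least 88.4-fold higher against a floor of 3 reads over the Sham group (edgeR adjusted p = 0.000983). Cr2, the complement receptor of B cells and follicular dendritic cells, had 3 reads in the Sham group, and its ratio of counts was 94.2 (95% counting interval 31.9 to 459.7). Irf4, a transcription factor needed for plasma cell formation, stood at 21.9, 14.8, 12.5 and 21.9 CPM against 1.89, 1.97, 0.874 and 2.16 CPM (3.36 ± 0.29 on the log2 scale; edgeR adjusted p = 4.31e-05), and Cd38, a surface enzyme of plasma and other activated cells, rose 6.22-fold. The summed level of the 17 genes was 1100 to 2892 CPM in AVF+NX libraries and 122 to 144 CPM in Sham libraries, without overlap. In whole tissue, more cells of a type and more RNA per cell cannot be told apart. The same 16 genes were called when any 1 AVF+NX or Sham library was left out.

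T and natural killer cell genes rose in the same libraries: 23 of 26 were called higher and 0 lower, with a median log2 fold change of 2.42. Cd3e, a chain of the T cell receptor complex, stood at 21.3, 12.7, 20.99 and 10.5 CPM in AVF+NX and 1.001, 1.73, 0.612 and 1.53 CPM in Sham, and its companion Cd3g at 14.99, 12.7, 14.3 and 8.66 CPM against 1.45, 0.658, 1.398 and 0.989 CPM. All AVF+NX values of both genes lay above all Sham values, and libraries 1 and 3 held the most Cd3e. The log2 fold changes were 3.73 ± 0.44 and 3.50 ± 0.36 (edgeR adjusted p = 0.000141 and 7.05e-05). The signalling genes Cd247, the zeta chain of the receptor, and Lat, the adaptor that the activated receptor phosphorylates, rose 15.7-fold and 6.05-fold, and Il2rb, the interleukin-2 receptor beta chain of T and natural killer cells, 4.11-fold. The summed level of the 26 genes was 253 to 391 CPM in AVF+NX and 67.2 to 78.3 CPM in Sham.

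Of 9 genes of lymphatic endothelium and lymph node tissue, 6 were called higher. Ccl19, a chemokine that draws lymphocytes into lymphoid tissue, measured 27.4, 47.3, 14.4 and 32.4 CPM in AVF+NX and 5.23, 3.78, 4.63 and 3.78 CPM in Sham (2.81 ± 0.40 on the log2 scale; edgeR adjusted p = 0.000504). Its receptor Ccr7 rose as well, with 5.84, 3.93, 5.25 and 5.4001 CPM against 0.334, 0.329, 0.0874 and 0.3596 CPM (4.16 ± 0.39; adjusted p = 4.31e-05 by edgeR). Neither gene's groups overlapped. Cr2, given above with the B cell genes, is also among the called members of this list. Of the lymphatic markers, Prox1 overlapped between groups, at 32.8 to 80.3 CPM in AVF+NX and 28.7 to 71.6 CPM in Sham. Ccl21 was called higher and overlapped too, at 20.9 to 138 CPM against 13.9 to 30.3 CPM. The list had 6 calls, and 3 were made without AVF+NX library 1 or without Sham library 2, 3 or 4.

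Macrophage and monocyte genes were nearly all higher: 40 of 42 were called higher and 0 lower (median 2.10). Cd68, a lysosomal protein of macrophages, stood at 84.3, 37.1, 58.4 and 52.3 CPM against 6.34, 6.003, 5.07 and 6.29 CPM, and C1qa, which macrophages make as part of the first complement component, at 144, 81.9, 96.2 and 125 CPM against 21.7, 19.2, 16.9 and 22.3 CPM. The groups did not overlap in either gene, and AVF+NX library 1 was the highest in both. The log2 fold changes were 3.29 ± 0.30 and 2.48 ± 0.25 (edgeR adjusted p = 4.74e-05 and 7.36e-05). Trem2, the lipid receptor of tissue macrophages, rose 11.97-fold and Cd14, the co-receptor for bacterial endotoxin, 2.49-fold. Some macrophage genes differed several-fold among AVF+NX kidneys. Mmp12, the elastase of macrophages, measured 8.44, 6.93, 143 and 96.998 CPM in AVF+NX libraries 1 to 4 and at most 0.539 CPM in Sham (8.20 ± 1.65; edgeR adjusted p = 0.00475), and Cd5l, a protein that macrophages secrete, 0.1795, 0.414, 11.3 and 21.7 CPM with 1 read in the Sham group (ratio of counts 357 (95% counting interval 63.6 to 14143)). For both genes libraries 3 and 4 were high and libraries 1 and 2 low, and with voom and quality weights the adjusted p was 0.169 for Mmp12 and 0.056 for Cd5l. Cd5l overlaps Fcrl1 on the same strand, so its counts are uncertain.

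The phagocyte oxidase makes superoxide from NADPH. Of 7 genes of this enzyme and its relatives, 5 were called higher and 1 lower, and the same 5 were higher when any 1 AVF+NX or Sham library was left out. Cybb, its membrane subunit, stood at 195, 109, 229 and 212 CPM against 39.4, 41.4, 36.2 and 45.3 CPM, with log2 fold changes of 2.20 ± 0.31 for Cybb, 2.46 ± 0.29 for the cytosolic subunit Ncf1, 2.11 ± 0.39 for Ncf4 and 2.26 ± 0.25 for the small GTPase Rac2 (edgeR adjusted p = 0.000485, 0.000155, 0.00223 and 0.000109). The gene called lower was Nox4, the oxidase of tubule cells, which was named after its values were seen. It measured 118, 170.3, 194 and 139.8 CPM in AVF+NX and 239, 358, 429 and 353 CPM in Sham, a log2 fold change of −1.15 ± 0.22 (edgeR adjusted p = 0.00311). The groups did not overlap.

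Antigen presentation and complement followed. Of 15 genes for presentation on major histocompatibility complex class II, 12 were called higher and 0 lower, but with a smaller median of 1.09. Ciita, the transactivator of the class II genes, stood at 61.5, 32.1, 40.96 and 39.3 CPM against 18.5, 18.01, 13.1 and 16.99 CPM, and Ctss, the protease that trims the invariant chain, rose 3.45-fold. The lysosomal reductase Ifi30 rose 1.64-fold, with an edgeR adjusted p of 0.00038, and Cd83, a surface protein of mature dendritic cells, 2.83-fold. The summed level of the 15 genes nevertheless overlapped, at 4966 to 7055 CPM in AVF+NX and 4428 to 5473 CPM in Sham. Among 28 complement genes 18 were higher and 1, C5 of the terminal pathway, lower (median 1.19; C5 −0.64 ± 0.13, edgeR adjusted p = 0.00327). C2, a protease of the classical pathway, measured 44.8, 28.7, 42.3 and 37.5 CPM in AVF+NX and 2.89, 2.88, 2.45 and 5.21 CPM in Sham (3.51 ± 0.43; edgeR adjusted p = 0.000203), though another gene on the same strand overlaps it, and C5ar1, the receptor for the anaphylatoxin C5a, rose 4.07-fold. AVF+NX and Sham libraries did not overlap in the class II and complement genes named here.

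Chemokine, cytokine and interferon genes formed a further group. Of 32 chemokines and chemokine receptors 22 were called higher and 0 lower (median 1.96), of 28 genes of inflammatory cytokine and NF-kB signalling 22 and 0 (median 1.18), and of 47 interferon-stimulated genes 41 and 0 (median 1.27). Cxcr4, a receptor found on most leukocytes, stood at 29.4, 18.7, 22.7 and 20.2 CPM in AVF+NX and 3.12, 3.701, 2.71 and 3.78 CPM in Sham (2.77 ± 0.24; edgeR adjusted p = 4.31e-05), while Ccr1 rose 12.2-fold and Cxcr3, the receptor of T cells for interferon-induced chemokines, 5.75-fold. Among the ligands, Cxcl6, which attracts neutrophils in humans, had 0 Sham reads and 5.21, 10.1, 2.83 and 2.45 CPM in AVF+NX, at least 75.1-fold higher. Ccl9, a chemokine that binds Ccr1 in the mouse, measured 3.77, 2.48, 16.3 and 13.9 CPM in AVF+NX with 3 reads over the Sham group, a ratio of counts of 131 (95% counting interval 44.4 to 638). Il1rn, the natural antagonist of interleukin-1, stood at 19.8, 16.7, 44.4 and 33.6 CPM against 2.34, 2.303, 1.398 and 1.53 CPM, and Tnfaip3, a brake on NF-kB, rose 2.899-fold (edgeR adjusted p = 0.000466 and 0.000293). Every AVF+NX library exceeded every Sham library in these 2 genes.

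Many interferon-stimulated genes are switched on through the interferon-stimulated response element (ISRE), a short promoter element. To show that element where the data bear on it, the 250 bases before the RefSeq gene start (GRCr8) are printed for Irgm, a GTPase of the interferon-induced family, and Lgals3bp, a secreted glycoprotein, which had the smallest adjusted p among the list members called higher that hold it and were thus chosen after their values were seen. Irgm's window is chr10:33742579-33742828 and that of Lgals3bp chr10:104127849-104128098, both on the minus strand. The bases run 5′ to 3′ on the gene's strand, and capitals mark the element, searched as TTTC, any 2 bases and TTTC on either strand and found here in its reverse form. It lies 34 to 25 bases upstream in Irgm and 50 to 41 bases upstream in Lgals3bp.
Irgm: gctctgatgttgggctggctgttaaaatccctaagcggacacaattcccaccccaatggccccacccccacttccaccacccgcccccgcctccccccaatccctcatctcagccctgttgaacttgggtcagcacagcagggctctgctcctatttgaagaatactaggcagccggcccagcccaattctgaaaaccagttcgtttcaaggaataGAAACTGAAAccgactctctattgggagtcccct
Lgals3bp: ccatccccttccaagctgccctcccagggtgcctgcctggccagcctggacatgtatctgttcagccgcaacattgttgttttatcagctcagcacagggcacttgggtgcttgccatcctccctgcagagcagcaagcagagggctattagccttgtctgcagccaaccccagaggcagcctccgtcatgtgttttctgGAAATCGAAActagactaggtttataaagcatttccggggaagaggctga

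The element occurred in 23 of the 35 list members with a RefSeq promoter (65.7%) and in 3.3% of all 27457 promoters of the same length. The list holds genes known to answer interferon, so this share describes the list and was not tested. Irgm stood at 23.2, 14.2, 18.3 and 13.6 CPM in AVF+NX and 7.23, 6.25, 7.95 and 7.28 CPM in Sham (1.27 ± 0.20; edgeR adjusted p = 0.000759), and Lgals3bp at 226, 129, 90.9 and 141 CPM against 56.3, 39.4, 48.7 and 51.7 CPM (1.58 ± 0.25; edgeR adjusted p = 0.000917). Irf8, a regulator of monocyte and dendritic cell development, measured 139, 69.8, 77.3 and 70.3 CPM against 15.02, 16.9, 17.7 and 17.8 CPM. Library 1 lay far above the other AVF+NX libraries, and all 4 lay above Sham (2.40 ± 0.26; edgeR adjusted p = 8.65e-05). Irf1, a first responder to interferon gamma, was more even, with 44.8, 44.5, 43.99 and 45.5 CPM against 20.6, 19.2, 17.4 and 23.9 CPM (1.14 ± 0.16), and the immunoproteasome subunit Psmb9 and the GTPase Ifi47 rose 2.75-fold and 3.29-fold.

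**Figure D2:**
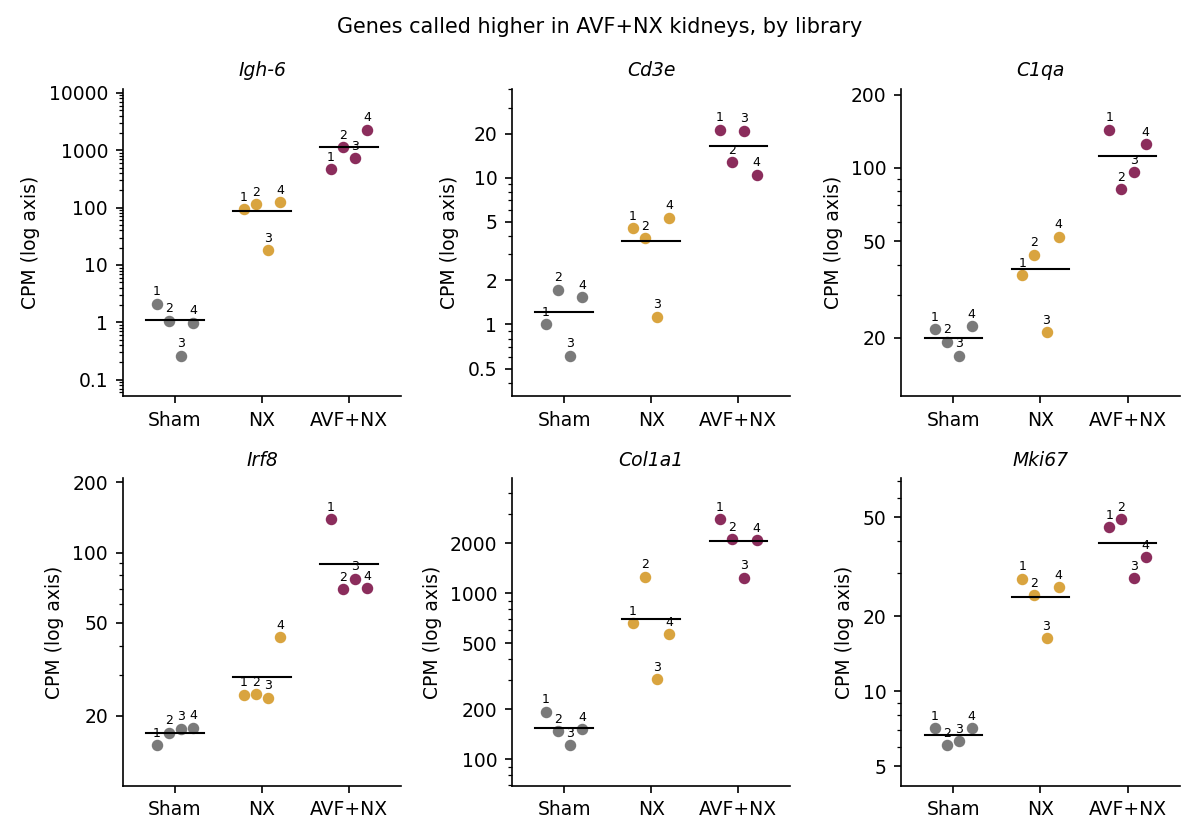
CPM (log axis) of 6 genes called higher in AVF+NX than in Sham kidneys, in each Sham, NX and AVF+NX library; numbers are library numbers and bars are means of 4. In all 6 panels every AVF+NX library lies above every Sham library, and the mean of NX lies between the means of Sham and AVF+NX.

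Interstitial matrix rose strongly. Of 34 genes of fibrillar collagens and interstitial matrix 27 were called higher and 0 lower, with a median log2 fold change of 1.99. Col1a1, a chain of collagen I, stood at 2808, 2119, 1244 and 2096 CPM in AVF+NX and 193, 147, 122 and 151 CPM in Sham, a rise of 3.75 ± 0.40 on the log2 scale (edgeR adjusted p = 8.75e-05). Even library 3, the lowest of the AVF+NX group, was above all Sham libraries. Postn, the matrix protein periostin, measured 178, 70.1, 68.4 and 57.4 CPM against 0, 0.0822, 0.175 and 0.809 CPM (8.36 ± 0.94; edgeR adjusted p = 0.000159), with library 1 far above the other AVF+NX libraries. Col5a3 and Col6a1, chains of collagens V and VI, rose 19.9-fold and 6.28-fold, and Sfrp4, a secreted Wnt antagonist, from at most 0.334 CPM in Sham to 9.34, 17.9, 21.1 and 25.1 CPM in AVF+NX. The summed level of the 34 genes was 6737 to 14718 CPM in AVF+NX and 2691 to 3479 CPM in Sham libraries.

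Enzymes that build and cut matrix also moved, with 21 of 34 higher and 1 lower (median 1.03). Timp1, an inhibitor of matrix metalloproteinases, stood at 34.6, 26.9, 12.4 and 23.03 CPM against 6.34, 6.83, 5.94 and 4.67 CPM (2.03 ± 0.27; edgeR adjusted p = 0.000279), and the proteases Mmp14, Mmp19 and Ctsk rose 3.93-fold, 4.28-fold and 5.82-fold. Mmp7, a protease of injured epithelium, measured 19.7, 25.6, 2.42 and 25.9 CPM in AVF+NX with 1 read in the whole Sham group, a ratio of counts of 802 (95% counting interval 144 to 31738), and library 3 was again the lowest. The gene called lower was Timp3, a matrix-bound inhibitor, picked out here only because it was the sole fall (−0.52 ± 0.14; edgeR adjusted p = 0.0159).

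Basement membrane changed less than interstitial matrix: 6 of 19 genes were higher and 1, the collagen chain Col4a4, lower (median 0.27), and 10 were higher without AVF+NX library 3. Col4a1 and Col4a2, the common chains of collagen IV, rose 2.13-fold and 1.85-fold and Lama4, a laminin chain, 1.86-fold.

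Among 30 genes of TGF-beta and BMP signalling, the pathway most studied in kidney fibrosis, 4 were higher and 3 lower (median 0.22), shares near those of all genes. Tgfb1, the ligand, stood at 129, 85.7, 75.7 and 104 CPM against 46.3, 42.4, 36.8 and 43.8 CPM (1.22 ± 0.18; edgeR adjusted p = 0.000458), Tgfbi, a matrix protein named for its induction by the ligand, rose 1.79-fold, and Inhba, which forms activin A, 7.77-fold. Bmp4 fell from 40.1, 40.9, 40.2 and 43.6 CPM in Sham to 21.01, 25.6, 31.4 and 25.7 CPM in AVF+NX (−0.67 ± 0.10; edgeR adjusted p = 0.000735). The groups did not overlap in these 4 genes. The count of higher members was 11 without AVF+NX library 3, and that of lower members 1 without AVF+NX library 1, 2 or 4 or without Sham library 2, 3 or 4, and 2 without Sham library 1.

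Of 19 genes of mesangial cells, pericytes and smooth muscle 9 were higher and 1 lower (median 0.59). Des, the intermediate filament desmin, rose 2.26-fold, Thy1, a surface protein of mesangial cells in the rat, 1.94-fold, and Pdgfra, a receptor of fibroblasts, 1.82-fold (edgeR adjusted p = 0.00236, 0.00202 and 0.0111). For Pdgfra, with 358, 314, 163 and 321 CPM in AVF+NX, library 3 reached into the Sham range of 146 to 165 CPM. Another listed gene lies over Pdgfra on the same strand, so the counts of Pdgfra are uncertain. The count of higher members was 5 without AVF+NX library 1, 13 without library 3, and 5 without Sham library 3 or 4.

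Genes of the cell cycle rose in 50 of 59 members and fell in 0 (median 1.94). Mki67, the nuclear antigen Ki-67 of dividing cells, stood at 45.6, 49.2, 28.5 and 34.6 CPM in AVF+NX and 7.12, 6.09, 6.29 and 7.102 CPM in Sham. Every AVF+NX library lay above every Sham library, with library 3 the lowest (2.57 ± 0.20; edgeR adjusted p = 2.66e-05). Top2a, the topoisomerase of replicating DNA, measured 22.2, 32.4, 15.6 and 19.1 CPM against 1.89, 2.88, 1.83 and 2.88 CPM (3.22 ± 0.29; edgeR adjusted p = 4.31e-05), and Cenpf, a kinetochore protein, and Anln, needed to divide the cell body, rose 6.36-fold and 5.47-fold. This count of higher members stayed between 46 and 52 when any 1 AVF+NX or Sham library was left out.

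Many genes of the late cell cycle carry a CCAAT box, bound by NF-Y, and a cell cycle homology region (CHR), bound by the DREAM and MYB-MuvB complexes. The 250 bases before the RefSeq gene start (GRCr8) of Mki67 and Top2a, the list members with the smallest adjusted p that hold both, show the pair. Mki67's window is chr1:199952594-199952843 and that of Top2a chr10:84473094-84473343, both on the minus strand. The bases run 5′ to 3′ on the gene's strand, and capitals mark TTTGAA and CCAAT on either strand.
Mki67: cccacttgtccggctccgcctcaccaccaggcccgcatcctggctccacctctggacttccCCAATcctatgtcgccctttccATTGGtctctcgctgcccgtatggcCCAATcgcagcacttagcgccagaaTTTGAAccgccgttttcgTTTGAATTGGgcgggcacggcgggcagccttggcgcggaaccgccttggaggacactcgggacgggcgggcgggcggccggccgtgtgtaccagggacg
Top2a: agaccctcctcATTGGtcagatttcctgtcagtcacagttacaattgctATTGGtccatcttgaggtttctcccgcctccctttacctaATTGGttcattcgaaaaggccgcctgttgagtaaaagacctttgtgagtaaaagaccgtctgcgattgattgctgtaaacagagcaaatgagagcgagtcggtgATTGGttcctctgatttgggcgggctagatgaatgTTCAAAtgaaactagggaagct

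In Mki67 the CHR lies 117 to 112 and again 99 to 94 bases upstream, where it shares 1 base with a CCAAT box on the other strand, and in Top2a it lies 22 to 17 bases upstream. Each window holds 4 CCAAT boxes. Both elements together occurred in 12 of the 46 list members with a promoter (26.1%) and in 5.8% of all promoters of this length. CCAAT, with or without the other, was in 69.6% of the members and 34.3% of all, and TTTGAA in 30.4% and 16.0%. These shares describe the list and were not tested. As a further description, the octamer ATGCAAAT of immunoglobulin promoters was in 0 of 10 B and plasma cell promoters and in 1.5% of all.

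Inhibitors of the cycle and p53 targets moved less as a group, with 8 of 23 higher and 2 lower (median 0.26); 5 were higher without AVF+NX library 1 or 4 or without Sham library 3 or 4. Cdkn1a, the inhibitor p21, stood at 42.4, 31.97, 16.1 and 23.3 CPM against 9.57, 4.93, 4.98 and 7.01 CPM (2.12 ± 0.31; edgeR adjusted p = 0.000558) and Cdkn2b, the inhibitor p15, at 4.67, 1.76, 1.51 and 3.77 CPM against 0.334, 0.0822, 0.262 and 0.3596 CPM (3.48 ± 0.60; edgeR adjusted p = 0.00137). Neither gene's groups overlapped. Plk2, a kinase induced by p53, rose 2.26-fold and Lmnb1, a nuclear lamin, 2.44-fold.

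Genes of tubular injury and repair rose in 32 of 43 members and fell in 0 (median 1.17). Havcr1, the injury marker KIM-1 of proximal tubule, stood at 45.6, 5.07, 4.24 and 12.7 CPM in AVF+NX libraries and 1.22, 1.07, 0.961 and 1.35 CPM in Sham, and Lcn2, the secreted marker NGAL of distal tubule and neutrophils, at 45.2, 73.98, 4.44 and 24.6 CPM against 3.78, 1.07, 1.31 and 0.2697 CPM. Library 1 was highest in Havcr1 and library 2 in Lcn2, library 3 was lowest in both, and neither gene's groups overlapped. The log2 fold changes were 3.88 ± 0.80 and 4.59 ± 1.07 (edgeR adjusted p = 0.00493 and 0.0102), with wide errors. Spp1, the phosphoprotein osteopontin, stood at 1746, 869.5, 594 and 1451 CPM against 364, 407, 339 and 237 CPM (1.79 ± 0.39; edgeR adjusted p = 0.006). Cd44, a receptor for hyaluronan and osteopontin, rose 6.599-fold, the galectin Lgals3 8.61-fold and the intermediate filament Vim 3.17-fold, all without overlap between groups. Macrophages also express Lgals3, Vim and Cd44, and the macrophage list's summed level was 5450 to 9450 CPM in AVF+NX and 2150 to 2637 CPM in Sham. Its part in these rises was not tested.

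Genes of urothelium and renal pelvis were higher in 10 of 13 members and lower in 0 (median 3.57), and they differed widely between AVF+NX kidneys. Krt15, a keratin of basal epithelial cells, measured 101, 22.5, 2.22 and 91.4 CPM in AVF+NX and 1.001, 0.822, 0 and 0.2697 CPM in Sham. Krt19, a keratin of ducts and urothelium, measured 88.96, 29.7, 5.85 and 64.5 CPM against 5.45, 5.76, 5.07 and 4.495 CPM. Libraries 1 and 4 were high, library 2 was between, and library 3 was nearest to Sham. Cldn4, a tight junction claudin, rose 2.61-fold (edgeR adjusted p = 0.0068) and did not overlap, whereas Grhl3, a transcription factor of urothelium, overlapped between groups through library 3 (2.97 ± 0.67; edgeR adjusted p = 0.00724). Another listed gene lies over Grhl3 on the same strand, so the counts of Grhl3 are uncertain. The log2 fold changes of Krt15 and Krt19 were 6.72 ± 1.63 and 3.19 ± 0.74 (edgeR adjusted p = 0.0123 and 0.00941); Krt15 was not called by voom with quality weights (adjusted p = 0.125), and Krt19 overlaps Krt14 on the same strand. Krt5, a basal keratin, had 0 Sham reads and 11.4, 1.03, 0.404 and 26.8 CPM in AVF+NX, at least 144-fold higher, but its listed interval overlaps 9 other genes, keratins among them, and without the count filter its adjusted p was 0.0635.

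The defining urothelial genes followed the same libraries: Upk1b, a uroplakin, stood at 20.9, 3.104, 1.11 and 13.9 CPM against 0.779, 0.7401, 1.05 and 0.4495 CPM, and Upk3a at 23.6, 1.24, 0.202 and 15.9 CPM against 1.78, 0.329, 0 and 0 CPM. Upk1b was called (edgeR adjusted p = 0.0152, but 0.0519 without AVF+NX library 1), and Upk3a just passed (edgeR adjusted p = 0.0444) but was lost in 9 of the alternatives, among them without AVF+NX library 1 or 4. The summed level of the 13 genes was 494, 309, 186 and 488 CPM in AVF+NX libraries 1 to 4 and 109.5 to 240.4 CPM in Sham, so the groups overlapped. How much renal pelvis each piece of tissue held was not measured, and its part in these values was not tested. With only the AVF+NX and Sham libraries in the fit, 5 members were called, and 7 to 11 when 1 library was left out.

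**Figure D3:**
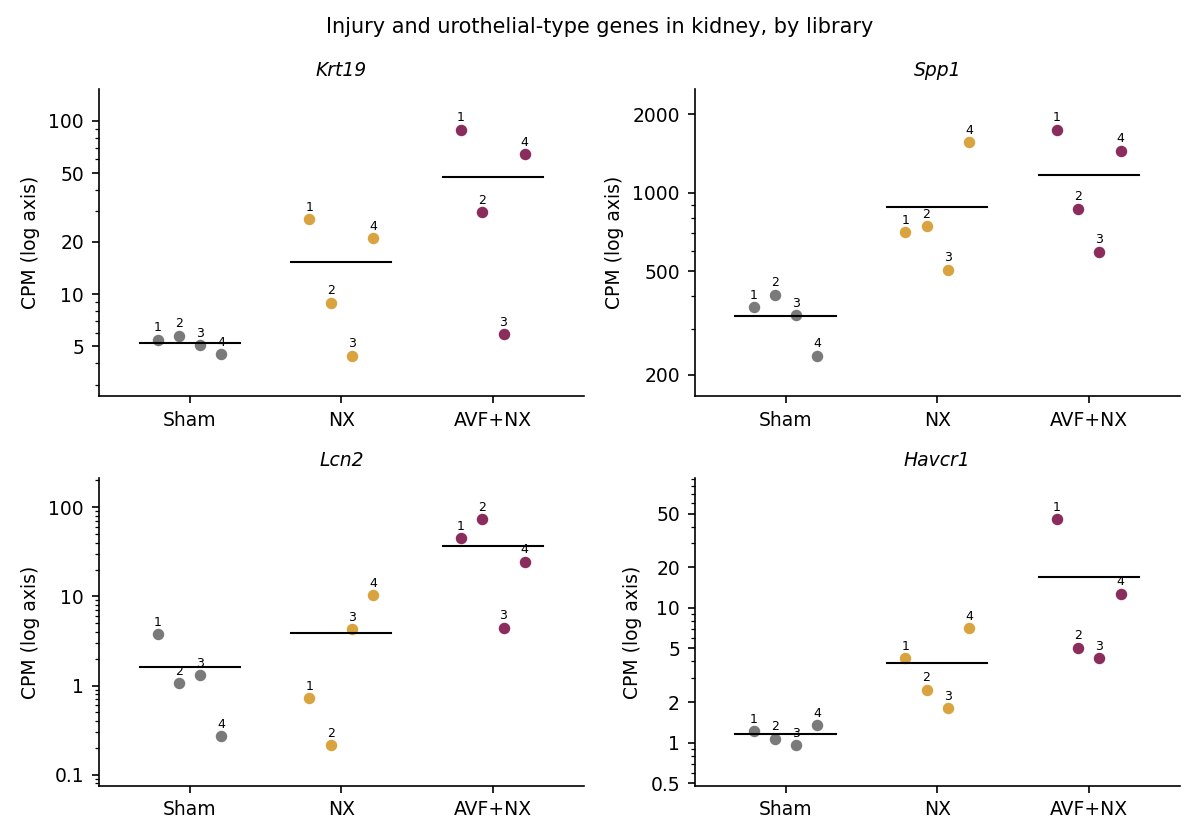
CPM (log axis) of Krt19, Spp1, Lcn2 and Havcr1 in each Sham, NX and AVF+NX library; numbers are library numbers and bars are means of 4. AVF+NX library 3 is the lowest of its group in all 4 panels, at 5.85 CPM for Krt19 and 594 CPM for Spp1.

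Transport and metabolism genes of the proximal tubule, the segment that takes back most of the filtered solute, were lower. Of 51 genes of proximal tubule identity 0 were called higher and 22 lower, against 15.9% and 9.18% of all genes, with a median log2 fold change of −0.56. Lrp2, the receptor megalin that takes up filtered protein, stood at 4894, 5351, 7323 and 5777 CPM in AVF+NX and at 9379.6, 10422, 10457 and 10747 CPM in Sham. Its partner Cubn, cubilin, stood at 1499, 1492, 2087 and 1965 CPM against 2491, 3195, 3081 and 3031 CPM. All AVF+NX values of both lay below all Sham values, by 1.76-fold and 1.67-fold in the fit (−0.81 ± 0.16 and −0.74 ± 0.16; edgeR adjusted p = 0.00293 and 0.00481). The peptidase Mme fell 1.87-fold (edgeR adjusted p = 0.000191) and the proline transporter Slc6a20 1.59-fold. Slc34a1, the main phosphate transporter, measured 1713, 2136, 2529 and 1390.4 CPM against 2907, 3322, 4471 and 3709 CPM (−0.89 ± 0.24; edgeR adjusted p = 0.016, and up to 0.0517 without AVF+NX library 1 or without Sham library 3). The groups did not overlap in these genes. The number of members called lower was 10 without AVF+NX library 1 and 12 and 13 without Sham libraries 3 and 4, and 16 to 32 without any other AVF+NX library.

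CPM are shares of a library's total. The summed level of the 51 proximal tubule genes was 29609 to 43909 CPM in AVF+NX and 47884 to 59191 CPM in Sham, while B and plasma cell, T and natural killer cell and macrophage lists were all higher in the same AVF+NX libraries, as given above. The part of those cells in the falls was not tested.

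Transcription factors of nephron identity fell with them, 8 of 29 lower and 0 higher (median −0.23; 13 without AVF+NX library 3). Hnf4a, which drives proximal tubule genes, stood at 543, 779, 881 and 650.0 CPM against 1051, 1255, 1172 and 1212 CPM (−0.72 ± 0.16; edgeR adjusted p = 0.00731). Lhx1, a homeobox factor of nephron formation, fell most of the 8, from 21.7, 33.3, 25.3 and 28.8 CPM in Sham to 8.71, 9.42, 15.8 and 8.76 CPM in AVF+NX (−1.36 ± 0.20; edgeR adjusted p = 0.000494), with library 3 nearest to Sham and no overlap. Sall1, a zinc finger factor of kidney development, fell 1.37-fold.

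Of 38 genes of fatty acid oxidation, the main fuel of the proximal tubule, 9 were lower and 0 higher (median −0.38), but the number was 2 without AVF+NX library 1, 2 or 4 or without Sham library 3, 3 or 4 without Sham library 4 or 2, 17 without Sham library 1, and 24 without AVF+NX library 3. Ppara, the nuclear receptor that controls the pathway, stood at 23.3, 33.4, 32.3 and 32.5 CPM against 34.3, 48.5, 67.2 and 51.7 CPM (−0.74 ± 0.18; edgeR adjusted p = 0.0106), and the peroxisomal oxidase Acox2 fell 1.61-fold (edgeR adjusted p = 0.0119). Of 41 nuclear genes of oxidative phosphorylation 2 were lower and 0 higher, a share below the 9.18% of all genes, although 40 of the 41 fold changes were below 0 (median −0.16). These 2 were Sdha, of complex II, and Atp5po, of the ATP synthase (edgeR adjusted p = 0.0277 and 0.049). Sdha was not called without AVF+NX library 1, 2 or 4 or without Sham library 2, 3 or 4, and Atp5po without any library other than AVF+NX library 3. In gluconeogenesis and glycolysis 5 of 31 were higher and 4 lower, shares near those of all genes. Among these 9, the hexokinases Hk2 and Hk3 rose 2.14-fold and 6.96-fold and the lactate exporter Slc16a3 2.39-fold, while Pc, pyruvate carboxylase of gluconeogenesis, fell 1.78-fold (edgeR adjusted p = 0.000293, 0.000445, 0.000413 and 0.00554). The 4 lower calls there were 1 without AVF+NX library 1 or without Sham library 3, 2 without AVF+NX library 2 or 4 or without Sham library 2 or 4, and 9 without AVF+NX library 3, and 3 of the 5 higher calls were left without Sham library 3.

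Other solute carriers and detoxifying enzymes moved in both directions. Of 28 amino acid transporters 4 were higher and 6 lower (median −0.18), or 35.7% called against 25.1% of all genes. The share higher was near the 15.9% of all genes, and the share lower was above their 9.18%. Slc7a11, the cystine importer that supplies glutathione synthesis, stood at 5.48, 3.72, 9.38 and 11.2 CPM against 0.111, 0.247, 0.0874 and 0 CPM (5.89 ± 0.78; edgeR adjusted p = 0.000286), all AVF+NX above Sham. The neutral amino acid transporter Slc6a18 and the aromatic amino acid transporter Slc16a10 fell 1.47-fold and 1.56-fold. The higher calls were 2 without Sham library 2, 3 or 4. Of 29 organic ion and drug transporters 1, Slco2b1, was higher and 5 lower (20.7% called, against 25.1% of all genes). Abcc6 fell 1.49-fold (edgeR adjusted p = 0.00312), and the number lower was 2 without AVF+NX library 1 or without Sham library 4, 3 without AVF+NX library 2 or without Sham library 3, and 9 without AVF+NX library 3.

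Of 25 cytochrome P450 genes 2 were higher and 6 lower (median −0.27), or 32% called against 25.1% of all genes. The share higher was below the 15.9% of all genes, and the share lower was above their 9.18%. Cyp1b1, which oxidizes steroids and arachidonic acid outside the liver, rose from 6.79, 4.77, 4.02 and 6.47 CPM to 50.5, 34.4, 26.5 and 42.9 CPM (2.81 ± 0.35; edgeR adjusted p = 0.000197), and Cyp51, of cholesterol synthesis, 1.801-fold, while Cyp4f1 fell 1.61-fold and Cyp2f4 3.15-fold (edgeR adjusted p = 0.0127 and 0.0112). Genes of this family share sequence, so their counts can be split between copies. The number lower was 2 without AVF+NX library 1 or 2 or without Sham library 3, and 3 without AVF+NX library 4 or without Sham library 2 or 4. Cyp1a1, an enzyme induced by dioxin-like ligands, measured 16.9, 10.7, 35.9 and 21.9 CPM against 35.4, 60.5, 170.0 and 76.7 CPM, overlapping between AVF+NX library 3 and Sham library 1; its log2 fold change was −2.01 ± 0.54 (edgeR adjusted p = 0.0201), and the call was lost without AVF+NX library 1 or 2 or without Sham library 3 (adjusted p up to 0.0692).

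Of 30 genes of the NRF2 antioxidant response 6 were higher and 2 lower, or 26.7% called, near the 25.1% of all genes. The number lower was 0 without AVF+NX library 1, 2 or 4 or without Sham library 4, and 1 without Sham library 2 or 3. Hmox1, heme oxygenase 1, stood at 44.3, 27.9, 31.5 and 31.3 CPM against 7.45, 8.06, 7.43 and 4.94 CPM (2.28 ± 0.27; edgeR adjusted p = 0.000141), without overlap. Nqo1, a quinone reductase, rose 1.74-fold. One of the lower members was Gpx3, the glutathione peroxidase that the proximal tubule releases into plasma, at 7457, 10541, 10579.9 and 7141 CPM against 9713, 15255, 17774 and 16486 CPM and with overlap (−0.73 ± 0.24; edgeR adjusted p = 0.0418); its adjusted p reached 0.115 and the call was lost without AVF+NX library 1, 2 or 4 or without Sham library 2, 3 or 4. Of 27 genes of cholesterol synthesis and uptake 9 were higher and 0 lower, with Hmgcs1 of the mevalonate pathway and its regulator Insig1 1.58-fold and 1.58-fold higher. Of 27 genes of endoplasmic reticulum stress 6 were higher and 1 lower (25.9% called, again near the share of all genes), led by the chaperone cofactor Sdf2l1 (2.55-fold; edgeR adjusted p = 0.000735). Of 19 hypoxia genes 2 were higher and 2 lower (21.1% called, below the share of all genes), and the number lower was 0 without AVF+NX library 1 or without Sham library 2, 3 or 4, and 1 without AVF+NX library 4. Of 18 genes of the insulin-like growth factor system 1 was higher and 4 lower (27.8% called), with 2 lower without Sham library 2; Insr and Igf1r, the receptors, fell 1.34-fold and 1.25-fold and Igfbp6, a binding protein, rose 7.28-fold (edgeR adjusted p = 0.00326, 0.00414 and 0.00791).

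**Figure D4:**
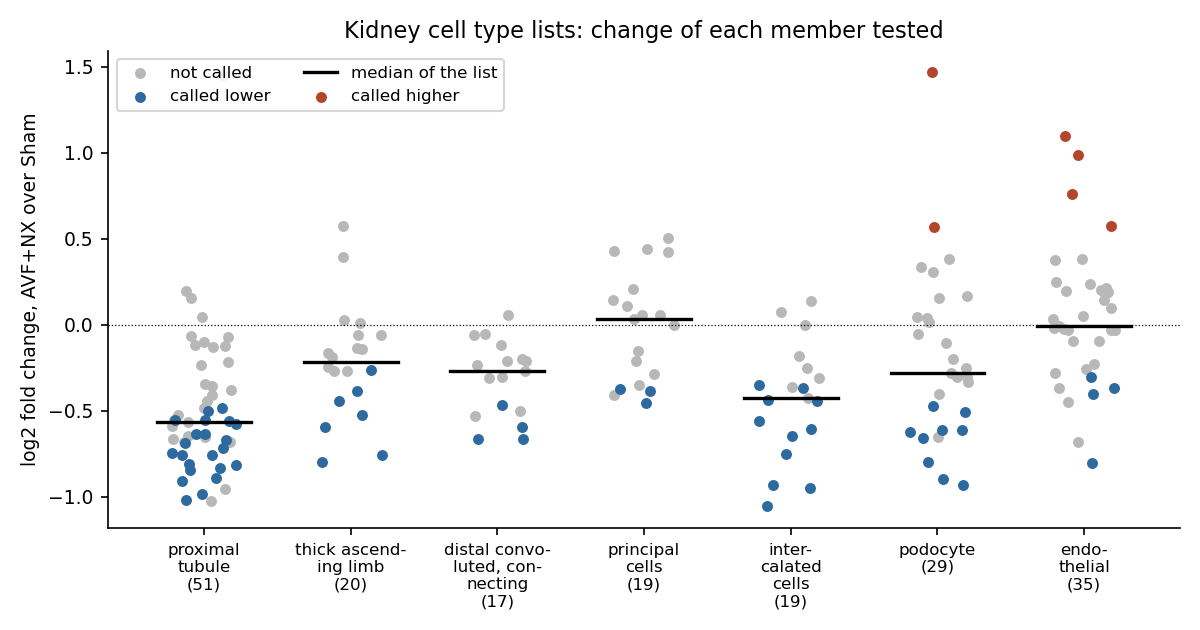
Log2 fold change, AVF+NX over Sham, of each tested member of 7 kidney cell type lists; grey points were not called, blue points were called lower and red points higher, and black bars are list medians. The medians run from −0.56 in proximal tubule to 0.03 in principal cells, and only the podocyte and endothelial lists hold members called higher.

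Of 20 genes of the thick ascending limb, which dilutes the urine, 7 were lower and 0 higher (median −0.22). Umod, uromodulin, the main protein of normal urine, stood at 1819.7, 2128, 2324 and 2992 CPM against 3385, 3207, 3031 and 3726 CPM, below Sham in all 4 libraries (−0.53 ± 0.16; edgeR adjusted p = 0.0299). That call was lost without AVF+NX library 1 or 2 or without Sham library 1, 2 or 4 (adjusted p up to 0.0861). Egf, the growth factor made in this segment, measured 94.4, 147, 201 and 182 CPM against 269, 242, 264 and 279 CPM (−0.76 ± 0.19; edgeR adjusted p = 0.0133), and Casr, the calcium-sensing receptor, 79.99, 84.8, 98.2 and 93.5 CPM against 167, 138, 152 and 163 CPM (−0.80 ± 0.11; edgeR adjusted p = 0.000277). Neither overlapped. The list's count was 2 without AVF+NX library 1, and 4 without AVF+NX library 2 or 4 or without Sham library 1, 2 or 3.

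In the distal convoluted and connecting tubule 4 of 17 genes were lower and 0 higher (median −0.27). Slc12a3, the thiazide-sensitive sodium chloride cotransporter, stood at 441, 539, 712 and 492 CPM against 743, 899.7, 955 and 864 CPM (−0.66 ± 0.15; edgeR adjusted p = 0.00774), and Nr3c2, the mineralocorticoid receptor, fell 1.38-fold (edgeR adjusted p = 0.00676). In principal cells 3 of 19 were lower (median 0.03), or 15.8%. Of all genes 9.18% were called lower and 25.1% in either direction. Among the 3 were Nedd4l, the ubiquitin ligase of the sodium channel, which fell 1.295-fold, and the transcription factor Tfcp2l1, which fell 1.304-fold. The count was 5 without AVF+NX library 3. Neither list had members called higher.

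Intercalated cells, which secrete acid or base, had the highest share of falls of the nephron lists, 11 of 19 lower and 0 higher (median −0.43). Slc26a4, the chloride-bicarbonate exchanger pendrin of base-secreting cells, stood at 55.7, 71.5, 88.2 and 62.7 CPM against 90.9, 149, 165 and 131 CPM (−0.95 ± 0.18; edgeR adjusted p = 0.00305). Slc4a9, the anion exchanger of the same cells, fell 1.91-fold, Atp6v0a4, a subunit of the proton pump, 1.56-fold, Foxi1, their master transcription factor, 1.52-fold, and the carbonic anhydrase Car12 1.47-fold (edgeR adjusted p = 0.0056, 0.00441, 0.0139 and 0.0098). Sham and AVF+NX values did not overlap in these 5 genes. They did overlap in the intercalated cell markers Slc4a1 and Atp6v1b1. Slc4a1 stood at 205 to 233 CPM in AVF+NX and 202 to 259 CPM in Sham, and Atp6v1b1 at 138 to 211 against 191 to 252 CPM. The list's number of falls was 6 without AVF+NX library 1 and 7 without Sham library 3.

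Mineral handling fell with the tubule: 8 of 19 genes were lower and 1 higher (median −0.37). Kl, klotho, the co-receptor for the phosphate hormone FGF23, stood at 592, 680.1, 754 and 705 CPM in AVF+NX and 994, 1192, 1139 and 996 CPM in Sham, with every AVF+NX library below every Sham library (−0.66 ± 0.14; edgeR adjusted p = 0.00415). Vdr, the vitamin D receptor, measured 161, 201, 223 and 203 CPM against 279.6, 325, 326 and 298 CPM (−0.64 ± 0.15; edgeR adjusted p = 0.00769), and Enpp1, which makes pyrophosphate, fell 1.29-fold. The member called higher was Trpv6, an epithelial calcium channel, at 5.39, 7.35, 0.706 and 3.57 CPM against 0.445, 0.0822, 0.612 and 0.539 CPM (3.32 ± 0.81; edgeR adjusted p = 0.0106), named after its values were seen. With only the AVF+NX and Sham libraries in the fit, 0 members were called higher. Of the 8 falls, 4 were left without AVF+NX library 1 or without Sham library 3 and 5 without AVF+NX library 2 or 4.

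In the filter, 9 of 29 podocyte genes were lower and 2, Kirrel1 and Pla2r1, higher (median −0.28). Nphs1, nephrin of the slit diaphragm, stood at 52.3, 77.9, 71.6 and 54.6 CPM against 117, 115, 124 and 121 CPM (−0.90 ± 0.15; edgeR adjusted p = 0.00135), without overlap. Npnt, a matrix protein of the glomerular basement membrane, fell 1.53-fold, Plce1, a phospholipase mutated in nephrotic syndrome in humans, 1.42-fold, and Clic5, a protein of the foot processes, 1.74-fold (edgeR adjusted p = 0.000383, 0.000964 and 0.00154). Of 35 endothelial and VEGF pathway genes 4 were higher and 4 lower (median −0.00), or 22.9% called against 25.1% of all genes. Among these 8, the VEGF receptors Kdr and Flt1 fell 1.32-fold and 1.29-fold, while Ets1, a transcription factor of endothelium and lymphocytes, and the co-receptor Nrp2 rose 1.695-fold and 1.98-fold (edgeR adjusted p = 0.00526, 0.0147, 0.000384 and 0.00572). Of the 4 higher endothelial calls 2 were left without AVF+NX library 1 or without Sham library 2, and of the 4 lower ones 2 without AVF+NX library 1 or without Sham library 4.

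**Figure D5:**
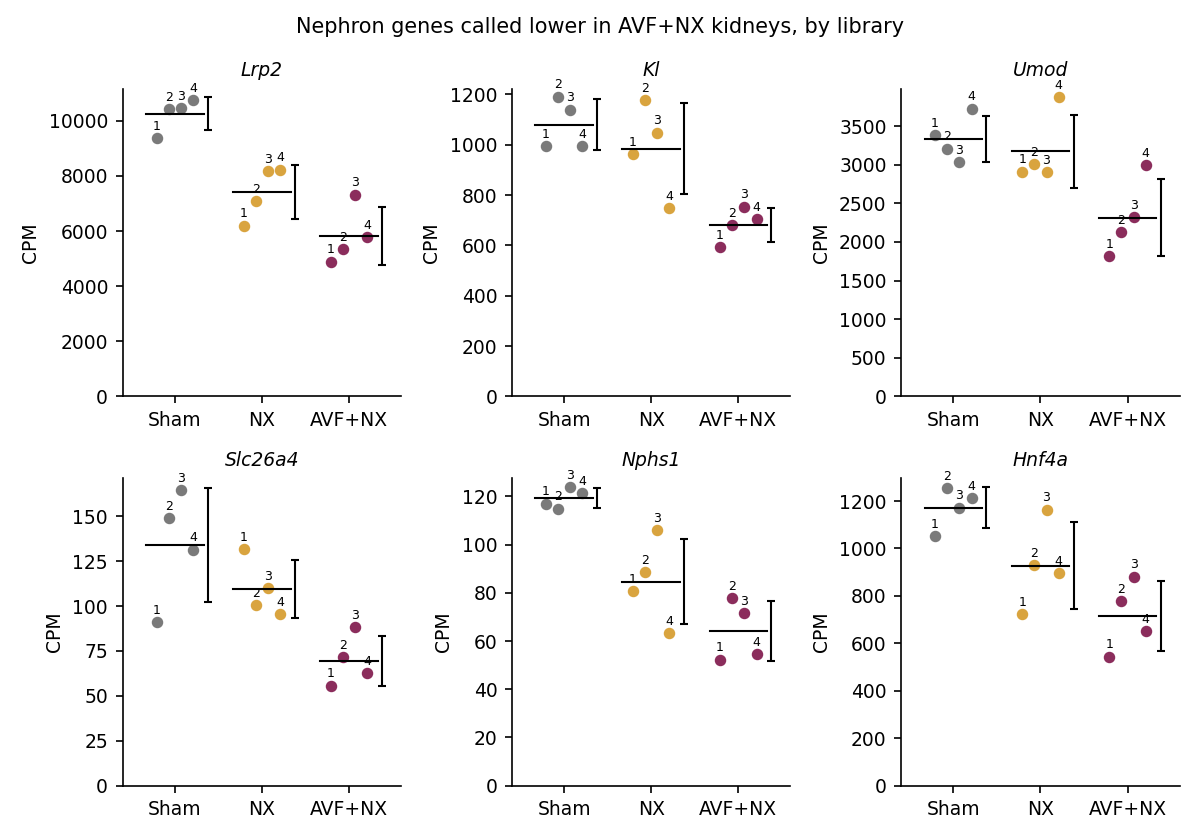
CPM, on axes from 0, of 6 nephron genes called lower in AVF+NX than in Sham kidneys, in each Sham, NX and AVF+NX library; numbers are library numbers, bars are means of 4 and error bars are SD. In every panel all AVF+NX libraries lie below all Sham libraries, and the NX means lie between.

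Markers of tissue next to the kidney were looked at in the same libraries. Of 9 adipose genes 4 were higher and 0 lower, and their summed level was 113 to 151 CPM in AVF+NX against 30.9 to 66.6 CPM in Sham. Cfd, adipsin, which is also a complement protease, stood at 47.7, 29.7, 20.2 and 30.7 CPM against 0.334, 0.987, 0.437 and 4.85 CPM (4.25 ± 0.89; edgeR adjusted p = 0.00557), and Fabp4, a lipid carrier of fat cells and macrophages, rose 7.32-fold (edgeR adjusted p = 0.0151). Cfd overlaps Arhgap45 on the same strand, so the counts of Cfd are uncertain. Adipoq, which only fat cells are known to make at high level, overlapped, with 20.2, 21.003, 14.2 and 16.4 CPM against 16.02, 9.54, 9.96 and 23.8 CPM (0.28 ± 0.43; edgeR adjusted p = 0.677). The other adipose marker, Plin1, was called higher and did not overlap, at 4.66 to 19.6 CPM in AVF+NX and 0.0822 to 1.53 CPM in Sham. Of the 4 adipose calls 2 were left without AVF+NX library 1. Of 12 neutrophil and mast cell genes with a symbol only 5 were tested, and 3 of these were higher. The ficolin Fcnb was 7.89-fold and Csf3r, the receptor for granulocyte colony-stimulating factor, 5.23-fold higher. The neutrophil marker S100a8 was below the count filter. S100a9, also called higher, overlapped, at 1.21 to 9.25 CPM in AVF+NX and 0.18 to 1.23 CPM in Sham. The higher calls were 2 without any 1 AVF+NX or Sham library other than AVF+NX library 3. None of 4 red blood cell genes, 2 liver and pancreas genes or 1 adrenal gene was called, and 1 of 2 skeletal muscle genes was higher; the levels of these last 3 lists summed to at most 46.7 CPM.

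Clock genes were split, and the share called was near that of all genes (28.6% against 25.1%). Of 21 tested 2 were higher and 4 lower: Nfil3, a repressor that is also induced by cytokines, was higher (36.3, 31.97, 4.34 and 12.9 CPM against 4.34, 4.11, 2.097 and 6.56 CPM, overlapping through library 3), and Hlf, an output factor of the clock, lower (21.5, 18.9, 23.1 and 26.2 CPM against 28.4, 40.95, 49.2 and 48.1 CPM). The edgeR adjusted p was 0.0131 and 0.014. The time of day of collection is not in the labels. The lower calls numbered 1 without AVF+NX library 1, 2 without AVF+NX library 2 or without Sham library 2, 3 or 4, and 6 without AVF+NX library 3.

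The 15 largest falls included genes not described above, all but Stc2 outside the lists. Il20ra, a receptor chain for interleukin-20 cytokines, measured 0.808, 1.86, 2.72 and 1.94 CPM against 4.01, 5.92, 9.17 and 5.12 CPM (−1.73 ± 0.39; edgeR adjusted p = 0.00682), Rxfp2, the receptor for insulin-like peptide 3, fell 3.13-fold and Baat, which joins bile acids to amino acids, 2.68-fold. Fetub, a protease inhibitor of the fetuin family, measured 4.58, 4.14, 9.28 and 6.22 CPM against 11.7, 14.6, 23.2 and 21.04 CPM (−1.54 ± 0.36; edgeR adjusted p = 0.00807). Stc2, the secreted glycoprotein stanniocalcin 2 and one of the 4 lower members of the insulin-like growth factor list, measured 6.104, 31.1, 14.4 and 26.5 CPM against 73.4, 54.03, 32.3 and 56.8 CPM with no overlap (−1.47 ± 0.42; edgeR adjusted p = 0.026), but its call was lost without AVF+NX library 3 or without Sham library 1, 2 or 4 (adjusted p up to 0.0652). The largest fall was that of Klk1c2, a member of the clustered kallikrein family whose copies share sequence, with 0.269, 0.103, 1.11 and 0.408 CPM against 1.22, 1.81, 3.93 and 4.32 CPM (−2.56 ± 0.67; edgeR adjusted p = 0.0149, and 0.0511 without AVF+NX library 1).

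Since AVF+NX and NX rats both had the nephrectomy, their kidneys were compared in the same fit to test where AVF+NX differed from nephrectomy alone. Of the 14322 genes 870 (6.07%) were called, 698 (4.87%) higher and 172 (1.2%) lower in AVF+NX. B and plasma cell genes again stood out, with 16 of 17 higher, against 15 of 26 T and natural killer cell genes, 22 of 42 macrophage genes, 10 of 15 class II genes and 15 of 47 interferon-stimulated genes. Igh-6, at 94.1, 114, 18.2 and 123 CPM in NX libraries 1 to 4, was higher in AVF+NX by 3.72 ± 0.61 on the log2 scale (edgeR adjusted p = 0.00904), Cd68 by 2.05 ± 0.28 (edgeR adjusted p = 0.00484) and Col1a1 by 1.57 ± 0.36 (edgeR adjusted p = 0.0292). Of 34 interstitial matrix genes 6 were called higher, of 59 cell cycle genes 2 and of 13 urothelial genes 0, and of 51 proximal tubule genes 0 were called lower. Mki67 stood at 28.4, 24.3, 16.4 and 26.2 CPM in NX (0.72 ± 0.18; edgeR adjusted p = 0.0375). For Lrp2, Havcr1 and Lcn2 the differences from NX were −0.35 ± 0.16, 2.06 ± 0.69 and 3.11 ± 0.94 on the log2 scale and were not called (edgeR adjusted p = 0.207, 0.1 and 0.0774), which does not show that these kidneys were alike. The falls called against NX included 5 of 17 genes of the distal convoluted and connecting tubule and 3 of 19 of principal cells; the log2 fold change over NX was −0.74 ± 0.15 for Slc12a3 and −0.53 ± 0.14 for Kl (edgeR adjusted p = 0.0165 and 0.0413).

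These counts depended on single libraries. NX library 3 lay with the Sham libraries on the first principal component, at −37.0, while the other NX libraries lay between −3.43 and 13.4. Over all genes 384 calls were made without NX library 3, 576 without NX library 2, 324 without AVF+NX library 1, 449 without AVF+NX library 4, 1585 without AVF+NX library 3, and 267 with only these 2 groups in the fit. Without AVF+NX library 1 the members higher than in NX were 14 of B and plasma cells, 10 of T and natural killer cells, 11 of macrophages, 7 of class II presentation, 1 of the interferon list and 1 of interstitial matrix, and no member of the distal convoluted or principal cell lists was lower. With only the AVF+NX and NX libraries they were 13, 10, 9, 6, 2 and 1. Other settings raised the counts: without AVF+NX library 3 the members higher than in NX were 26 of the interferon list, 19 of interstitial matrix, 10 of the cell cycle and 3 of urothelium, and with DESeq2 25, 19, 8 and 1. Interstitial matrix had 15 without NX library 2, and the cell cycle list 12 with voom and 8 without NX library 4. In the proximal tubule list 1 member was lower with DESeq2 and 1 with voom. The differences of Igh-6 and Cd68 from NX were called under all 14 alternatives (adjusted p up to 0.0385 and 0.0313). That of Col1a1 was lost without AVF+NX library 1, 2 or 4 or without NX library 1 or 4, that of Mki67 without AVF+NX library 1, 2 or 4 or without NX library 2 or 3, and that of Kl without those AVF+NX libraries or NX library 1, 2 or 3. The difference of Slc12a3 was lost without AVF+NX library 1 or 4. All 4 were lost with only these 2 groups in the fit, and Col1a1 also with voom or without the count filter. Havcr1 and Lcn2 were called without AVF+NX library 3 and with DESeq2 (adjusted p = 0.0404 and 0.0367), and Lcn2 also without NX library 4. The comparisons with Sham and with NX share the 4 AVF+NX libraries.

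Whether the kidney's change differed from that of the heart was tested for 11 of the genes named here, as the interaction of organ and group over all 23 libraries, in which 27.9% of 15222 genes were called. The log2 fold change in heart minus that in kidney was −2.90 ± 0.47 for Col1a1 (edgeR adjusted p = 0.000382), −3.86 ± 0.52 for C1qa (edgeR adjusted p = 0.000117), and −6.89 ± 1.79 for Jchain (edgeR adjusted p = 0.00822). Igh-6, Mzb1, Postn and Lcn2 also differed in this direction. Without heart Sham library 1 the differences of Igh-6, Jchain and Lcn2 were not called, and that of Igh-6 moved from −9.90 to −4.50. That of Igh-6 was also lost without the count filter, and that of Lcn2 was lost in 10 of 18 alternatives, among them without kidney AVF+NX library 1 or 2, kidney Sham library 2, 3 or 4 or heart AVF+NX library 1 or 3. Those of C1qa, Col1a1, Mzb1 and Postn were called in all 18. For Mki67, Havcr1, Slc34a1 and Lrp2 the difference between organs was not called (edgeR adjusted p = 0.804, 0.721, 0.772 and 0.813). This does not show that the organs changed alike in these genes. With 1 library left out the difference ran from −2.61 to 0.379 for Havcr1 and from 0.469 to 3.46 for Slc34a1. It ran from −0.387 to −0.0156 for Mki67 and from −0.0574 to 0.568 for Lrp2.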

How the data were processed

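Poly(A) RNA of snap-frozen kidney was sequenced from strand-specific libraries, per the labels' protocols. The submitters' processing notes name Trimmomatic 0.36, STAR 2.5.2b and featureCounts of Subread 1.5.2; no source used here gives the genome build or whether reads were counted by strand. The authors deposited a raw count per gene for each library. They also deposited a table of this comparison with normalised counts, which the file headers call such and which were a signal equal to the count divided by 1 factor per library, and with log2 fold changes, p-values and adjusted p-values; that table entered only the comparison of calls.

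Counts were tested with edgeR 4.0.16 in R 4.3.3, by quasi-likelihood fit to all 12 kidney libraries with TMM scaling, filterByExpr and the Benjamini-Hochberg adjustment over the 14322 genes left, and an adjusted p below 0.05 made a call. CPM are scaled by TMM, fold changes are the fitted ones, and ± is the SE. The kidney counts total 9069354 to 18782085 per library, so precision is limited at low counts, and count intervals cover counting error only. DESeq2 1.42.0 and limma 3.58.1 (voom with quality weights) were alternatives, as were other scaling, no filter, fewer groups, a replicate block and leaving out each library. The fit was tested on simulated data. Symbols were given for 15123 of 32552 gene IDs, and 1017 members of 47 lists were tested. Named genes were those called with the largest changes overall and the smallest adjusted p in each list, plus cell type markers; genes named as the few exceptions in a list were chosen after their values were seen. The members and lists were chosen with earlier results of these data known. Promoters came from RefSeq (GRCr8), and motifs were searched on both strands.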

Additional observations from a re-analysis of the deposited data

Results flagged for a closer look

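Of 316 groups of 4 libraries checked, 11 held a library set apart from the other 3 by a gap of more than 0.829 of the group's range, where chance flags about 1 in 20 groups. In AVF+NX, library 1 stood apart for Postn at 178 CPM (others 57.4 to 70.1), for Irf8 at 139 CPM (others 69.8 to 77.3) and for Ppara at 23.3 CPM (others 32.3 to 33.4). Library 3 stood apart for Lhx1 at 15.8 CPM (others 8.71 to 9.42). In Sham, library 4 stood apart for C2 at 5.21 CPM, for Cfd at 4.85 CPM and for Mmp7 at 0.0899 CPM, library 1 for Ctsk at 9.68 CPM, for Cd5l at 0.111 CPM and for Ccl9 at 0 CPM, and library 3 for Ccr7 at 0.0874 CPM. The Mmp7 and Cd5l values are single reads.

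The change from Sham to AVF+NX differed between heart and kidney for 7 of 11 genes tested, by the interaction of organ and group in edgeR. Over all 15222 genes 27.9% were called, and the 11 were taken from the genes named here in kidney. The log2 fold change in heart minus that in kidney was −9.90 for Igh-6 (edgeR adjusted p = 0.0316; −4.50 and not called without heart Sham library 1), −7.55 for Mzb1 (edgeR adjusted p = 6.93e-05), −6.89 for Jchain (edgeR adjusted p = 0.00822) and −6.74 for Postn (edgeR adjusted p = 0.00208). It was −4.20 for Lcn2 (edgeR adjusted p = 0.0317), −3.86 for C1qa (edgeR adjusted p = 0.000117) and −2.90 for Col1a1 (edgeR adjusted p = 0.000382). The call of Lcn2 was lost in 10 of 18 alternatives. That of Jchain was lost without heart Sham library 1 (edgeR adjusted p = 0.128), and that of Igh-6 also without the count filter.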

How the results depend on the processing

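Of 157 named genes called in AVF+NX against Sham, 143 kept the call under every alternative in which they were tested, 97 of 103 higher and 46 of 54 lower. None changed direction. Alternatives in which a gene was not tested were left out of its count. Trpv6, counted among the 143, was not among the calls with only the AVF+NX and Sham libraries. Over all genes the count of 3594 was 2313 to 4428 when 1 library was left out and 1388 with a 2-fold minimum; the higher calls were then 1313. The lower calls were 661 to 1721 with 1 library left out, 2124 with voom and 75 with the 2-fold minimum, which also left 323 of 509 list members. Against NX, where the main counts were 870 in all, 698 higher and 172 lower, leaving out 1 library gave 324 to 1585, 295 to 1244 and 29 to 341. With only these 2 groups they were 267, 235 and 32, with DESeq2 1521, 1151 and 370, and with the 2-fold minimum 411, 410 and 1; the lower calls were 111 without the filter and 270 with voom. In the heart minus kidney difference, leaving out 1 library gave −2.61 to 0.379 for Havcr1 (above 0 without heart Sham library 1) and −0.0574 to 0.568 for Lrp2 (below 0 without heart AVF+NX or Sham library 3), and neither was called. The causes were not tested.

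Replicate numbers were not treated as a pairing. The correlations of deviations between AVF+NX and Sham libraries of the same number were 0.141, 0.009, 0.213 and −0.067. Between libraries of different numbers they ran from −0.253 to 0.164. With the replicate number as a block 4226 genes were called against Sham (2465 higher and 1761 lower), 1647 against NX (1148 and 499), 595 list members and 4450 genes between organs. The block ended the call of Lcn2 between organs (adjusted p = 0.0562). Against NX it gave 14 proximal tubule genes lower, and 18 interstitial matrix, 7 cell cycle and 6 urothelial genes higher; against Sham it gave 5 genes of the NRF2 list lower.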
